A study of Mus musculus with 2 samples.

Results

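The nuclear genes of respiratory complexes II to V encode the enzymes that pass electrons from succinate and ubiquinol to oxygen and use the resulting proton gradient to make ATP. They were taken as all annotated coding genes whose symbol starts with Sdha, Sdhb, Sdhc, Sdhd, Uqc, Cox followed by a digit, or Atp5, together with Cyc1 and Cycs. The annotation holds 66 such genes, and 63 of them had reads, out of 14451 annotated mouse genes with reads. RNA of the gastrocnemius, a calf muscle made mostly of fast fibres, had been read as long complementary DNA in 2 libraries. Both came from adult female mice of the hybrid strain B6CASTF1/J, aged 18 to 20 months, with 2 µg of RNA each. They are labelled biological replicates 1 and 2 of 1 group, with no treatment named, and carry the same donor record. Both descriptions name the same pair of animal-style identifiers, and whether each library came from 1 animal or from pooled animals is not given, so p-values between the libraries measure only how far these libraries differ, which may be technical. No other tissue, age or treatment was in the series.

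Complex II (succinate dehydrogenase) oxidises succinate and is built only from nuclear genes. Complex III passes electrons from ubiquinol to cytochrome c, complex IV (cytochrome c oxidase, COX) passes them on to oxygen, and complex V (ATP synthase) turns the proton gradient into ATP. Complexes III, IV and V also hold subunits made in the mitochondrion from its own DNA. Several small COX subunits exist as paralogs, with a form typical of heart and skeletal muscle and a form, named after liver, that most tissues use. The c ring of ATP synthase is made from genes whose mature product is the same and whose import leaders differ.

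Annotated mouse genes held 1117891 reads in replicate 1 and 975696 in replicate 2. A level is given as CPM, the reads of a gene per 1000000 of these, and a count of 0 allows a level of up to 2.68 and 3.07 CPM. A long read stands for 1 molecule whatever its length, so CPM was not divided by length; where genes are compared with each other, the ratio per kilobase of the coding transcript is given beside it. In bulk tissue, fewer cells of a type and less RNA per cell cannot be told apart. The libraries differed in slow fibre markers (6 genes, among them the slow myosin Myh7), which summed to 574 CPM in replicate 1 and 4642 CPM in replicate 2, all 6 higher in replicate 2. Fast fibre markers (6 genes) summed to 170888 and 160321 CPM, with Myh4, a fast myosin, higher in replicate 2 (18990 and 30582 CPM) and the other 5 higher in replicate 1. Of 5 fibroblast markers, 3 collagens were higher in replicate 2 and Dcn in replicate 1 (summed 325 and 451 CPM), and 4 macrophage markers had 51 and 13 reads in all. The part of these differences in the results was not tested. Cardiac markers summed to 0.895 and 5.12 CPM (4 of 6 at 0 in both), brown fat markers summed to 2.68 and 1.02 CPM (2 of 4 at 0), and liver and testis markers (4 each) were all at 0.

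The members together took 27591 CPM in replicate 1 and 27394 CPM in replicate 2, which is 2.75% ± 0.014 (SD, n = 2) of all reads on annotated genes. Complex V was the largest group, with 11650 and 11363 CPM, followed by complex IV with 8731 and 8237 CPM, complex III with 5189 and 5479 CPM and complex II with 1608 and 1919 CPM. The order of the complexes was the same in both libraries. Per kilobase of the coding transcripts, complex IV came before complex V in both, with 14009 and 12909 against 12858 and 11890 CPM per kilobase, so the order of these complexes depends on the scale. Subunits and cytochrome c took 26303 and 26255 CPM, whereas the 17 assembly factors of the rule took 1228 and 1086 CPM. The median gene with reads had 310 CPM, against 21.9 CPM over all 8394 genes with at least 10 reads.

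**Figure D1:**
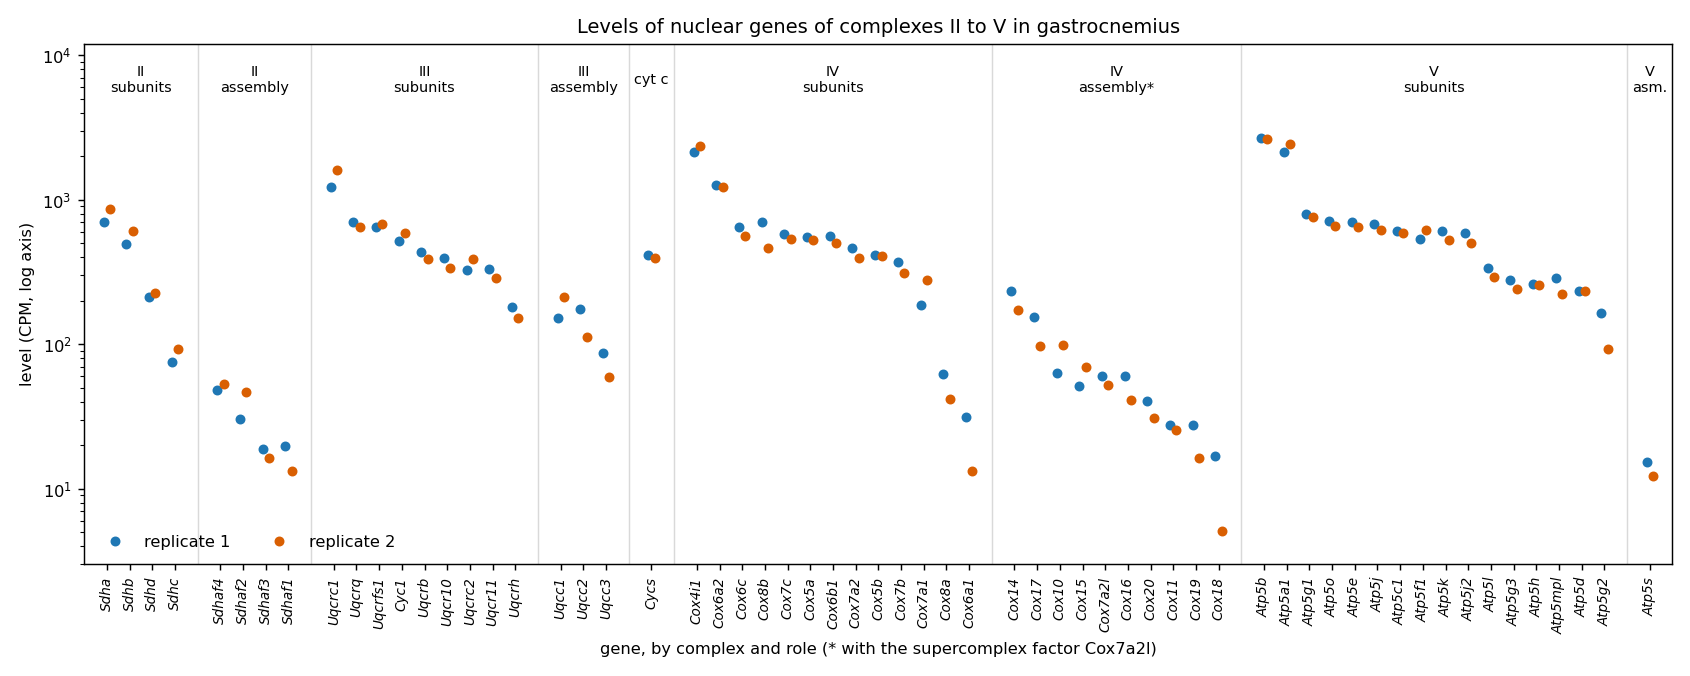
Level of each gene in CPM (log axis) in replicate 1 (blue) and replicate 2 (orange), by complex and role, with assembly factors beside the subunits of their complex. Most subunits lie above the assembly factors of their complex, and Atp5b, Atp5a1 and Cox4i1 are the highest. Points of the libraries lie close together for most genes and apart for Cox7a1, Cox8b, Atp5g2 and the low Cox18.

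In complex II, Sdha, the flavoprotein that binds succinate, was read 789 times in replicate 1 and 841 times in replicate 2 (706 and 862 CPM). The iron-sulfur subunit Sdhb had 555 and 593 reads (496 and 608 CPM). Both of these peripheral subunits stood above the membrane anchors, of which Sdhd had 238 and 221 reads and Sdhc had 85 and 90. Although the enzyme holds the same number of each subunit, Sdha had 9.28 times the reads of Sdhc in replicate 1 (95% exact interval 7.41 to 11.8) and 9.34 times in replicate 2 (7.51 to 11.7). Per kilobase the ratios of Sdha to Sdhc were 10.1 and 10.2. The order of Sdha and Sdhb depends on the scale, since Sdha led by reads (1.42 in both libraries) and Sdhb per kilobase (0.560 and 0.558). The assembly factors Sdhaf1 to Sdhaf4 were far lower and took 117 and 130 CPM together.

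Among the 9 subunits of complex III, the core protein Uqcrc1 led with 1368 and 1576 reads (1224 and 1615 CPM). The small subunit Uqcrq followed with 788 and 635 reads, and the Rieske iron-sulfur protein Uqcrfs1 had 729 and 664. Its lowest subunits were Uqcr11 with 371 and 282 reads and the hinge protein Uqcrh, which docks cytochrome c, with 203 and 149. The cores Uqcrc1 and Uqcrc2 occur as partners in the complex, yet Uqcrc1 had 3.73 times the reads of Uqcrc2 in replicate 1 (95% exact interval 3.32 to 4.19) and 4.17 times in replicate 2 (3.72 to 4.68), or 4.28 and 4.78 times per kilobase. Cyc1, the haem-bearing cytochrome c1, had 584 and 571 reads. Cycs, the mobile carrier cytochrome c, had 462 and 386 reads, and the testis form Cyct had none in either library.

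In complex IV, Cox4i1, the ubiquitous form of the regulatory subunit 4, led with 2402 and 2306 reads (2149 and 2363 CPM). Cox6a2 had 1418 and 1190 reads (1268 and 1220 CPM), and Cox6c had 722 and 551. The lowest subunits detected in both libraries were Cox8a, with 70 and 41 reads, and Cox6a1, with 35 and 13. Cox4i2, the form known from lung and low oxygen, had 0 and 1 read. Cox6b2, Cox7b2 and Cox8c, described from testis, had no reads in either library, so each lay below 2.68 and 3.07 CPM.

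The paralog pairs of complex IV did not follow a common rule. Cox6a2, the muscle form of subunit 6a, held 97.6% of the reads of its family in replicate 1 (Wilson 95% interval 96.7 to 98.3) and 98.9% in replicate 2 (98.2 to 99.4). Its odds in the family were 2.26 times as high in replicate 2 (95% interval 1.16 to 4.67), with 35 and 13 reads on Cox6a1. Cox8b, the muscle form of subunit 8, had 782 and 454 reads against 70 and 41 for Cox8a, which is 91.8% and 91.7% of the family (89.7 to 93.4 and 89.0 to 93.8). For subunit 7a the liver form led: Cox7a1, the muscle form, had 208 and 270 reads, and Cox7a2, the liver form, 521 and 388. The muscle form thus held 28.5% of the family's reads in replicate 1 (25.4 to 31.9) and 41.0% in replicate 2 (37.3 to 44.8). These intervals do not overlap, and the odds of Cox7a1 were 1.74 times as high in replicate 2 (95% interval 1.39 to 2.19). Per kilobase Cox7a2 led in replicate 1 (1.49 times Cox7a1) but not in replicate 2 (0.857), because its transcript is longer. Slow fibre markers moved in the same direction between the libraries as Cox7a1; their part in the difference was not tested. Across the 3 families together the muscle forms held 79.4% and 81.2% of the reads.

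**Figure D2:**
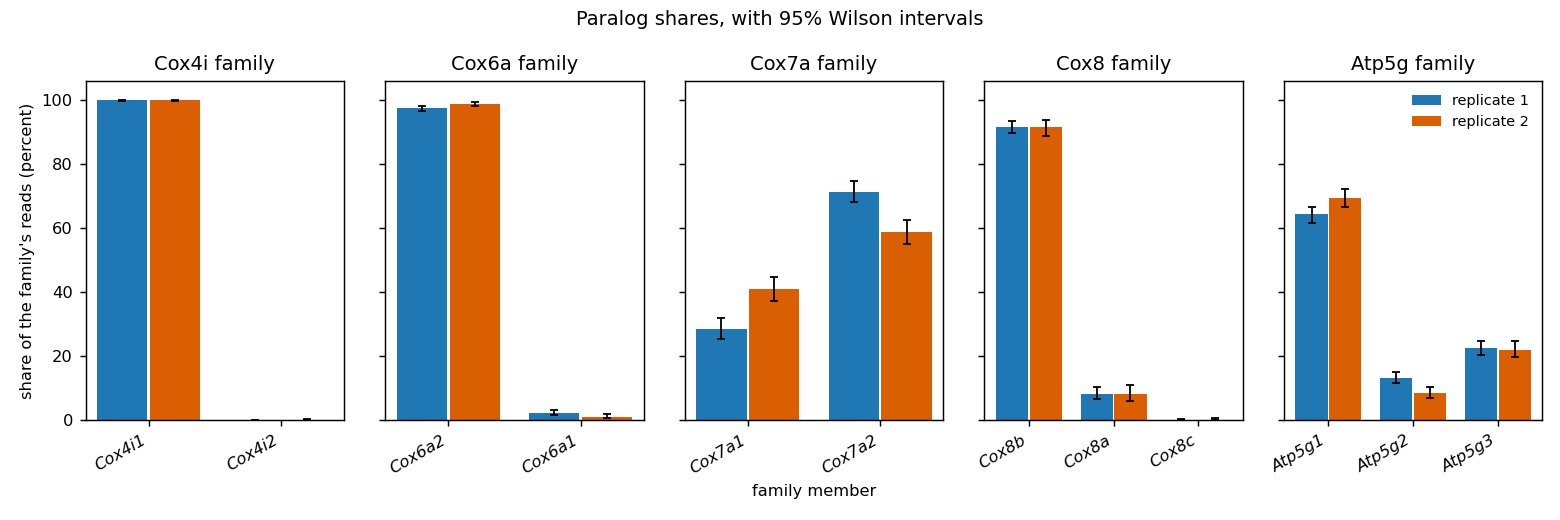
Share of each paralog in the reads of its family, in percent, for replicate 1 (blue) and replicate 2 (orange), with Wilson 95% intervals. Muscle forms hold over 90% in the Cox6a and Cox8 families and 28.5% and 41.0% in the Cox7a family, where the bars of the libraries differ most.

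The members of a pair can be told apart by sequence. The coding sequences of Cox7a1 and Cox7a2 were the same at 161 of 255 aligned positions (63.1%), with no shared stretch longer than 12 bases, and those of Cox6a2 and Cox6a1 (59.4%) and of Cox8b and Cox8a (55.0%) were still less alike. They are shown for the subunit 7a pair, which of the COX pairs had the largest change in percent between the libraries. The bases are from the GENCODE M21 transcripts on GRCm38 (chr7:30184231-30185967 on the plus strand and chr9:79755547-79759657 on the minus strand, introns left out). Capitals mark bases that differ from the aligned partner or have none.
Cox7a1: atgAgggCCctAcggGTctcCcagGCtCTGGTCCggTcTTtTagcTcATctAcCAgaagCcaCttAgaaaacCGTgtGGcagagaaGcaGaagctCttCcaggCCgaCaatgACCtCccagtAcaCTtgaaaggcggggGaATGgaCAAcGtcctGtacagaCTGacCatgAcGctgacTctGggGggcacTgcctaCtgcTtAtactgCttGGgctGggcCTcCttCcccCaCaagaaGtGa
Cox7a2: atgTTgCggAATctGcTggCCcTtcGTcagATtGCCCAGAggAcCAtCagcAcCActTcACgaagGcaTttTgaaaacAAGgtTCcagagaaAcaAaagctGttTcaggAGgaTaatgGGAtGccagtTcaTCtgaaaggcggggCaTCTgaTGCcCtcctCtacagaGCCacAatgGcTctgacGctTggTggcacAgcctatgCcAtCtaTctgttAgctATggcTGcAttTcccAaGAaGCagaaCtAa
The capitals are spread over the whole sequence, so a read of either transcript meets many bases that tell the pair apart.

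In complex V, the catalytic β subunit Atp5b had 3014 and 2579 reads (2696 and 2643 CPM), the highest CPM of any member. Per kilobase, on the mean of the libraries, it came behind Cox4i1, Cox6a2, Cox8b, Atp5e and Atp5k, with 1393 against 3028 CPM per kilobase for Cox4i1. In replicate 2 alone, Atp5b stood above Cox8b, with 1380 against 1293 CPM per kilobase. The α subunit Atp5a1, its partner in the F1 head, had 2380 and 2393 reads (2129 and 2453 CPM). Atp5g1, a source of the c ring, followed with 894 and 743. The head holds several copies of α and β for each γ subunit, and Atp5b had 4.43 and 4.49 times the reads of the γ subunit Atp5c1 (680 and 575 reads), or 2.45 and 2.48 times per kilobase. Atp5d, the δ subunit at the foot of the γ stalk, had 262 and 227 reads. The peripheral stalk genes Atp5o (798 and 640 reads), Atp5j (764 and 601), Atp5f1 (595 and 607) and Atp5h (291 and 250) spanned 258 to 685 CPM on average. The membrane subunits Atp5k, Atp5j2, Atp5l and Atp5mpl ranged from 257 to 567 CPM. The lowest subunits of the complex were Atp5d and Atp5g2. A second annotated gene with the symbol Atp5o, ENSMUSG00000116933.1, had 1 read in each library.

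Within the c ring family, Atp5g1 held 64.3% of the reads in replicate 1 and 69.4% in replicate 2, Atp5g3 (313 and 236 reads) 22.5% and 22.1%, and Atp5g2 (183 and 91 reads) 13.2% and 8.50%. The last 228 coding bases, which hold the mature subunit, were 85.1% the same between Atp5g1 and Atp5g2, against 57.1% in the leaders before them. The place of Atp5g2 depends on its processed copies, that is, annotated pseudogenes without introns that share over 50% of their 21-base words with a member's transcripts. Its copies Gm10175 (chromosome 7) and Gm10231 (chromosome 17) hold the whole Atp5g2 coding sequence with no difference over 441 bases. They carried 111 and 54 reads and 129 and 100 reads, which is 240 and 154 together and more than Atp5g2 itself. With copies added, Atp5g2 went from 13.2% to 25.9% of the family in replicate 1 and from 8.50% to 19.9% in replicate 2, and then stood above Atp5g3 (19.1% and 19.2%).

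Such copies mattered for a few other members. Of 28 processed copies of 14 members, 16 had reads, 705 in replicate 1 and 527 in replicate 2, equal to 2.29% and 1.97% of the members' own reads. The copy with the most reads was Gm12338 (chromosome 11), with 370 and 259 reads beside 648 and 526 on Cox7c, a small COX subunit. Its 192 bases are the same as the Cox7c coding sequence at every position. That sequence (Cox7c-203, chr13:86045753-86046675, minus strand, introns left out) is shown because reads holding only these bases fit either place.
Cox7c: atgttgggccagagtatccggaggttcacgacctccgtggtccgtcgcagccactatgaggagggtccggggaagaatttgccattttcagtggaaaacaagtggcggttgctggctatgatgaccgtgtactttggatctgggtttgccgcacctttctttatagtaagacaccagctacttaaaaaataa
For Atp5l, a membrane subunit of complex V, copies held 12.5% and 17.7% of the combined reads. An intronless gene annotated as coding, Gm11273, shares 83.0% of its words with Cox5b and had 133 and 108 reads beside 461 and 398 on Cox5b. For the supercomplex factor Cox7a2l, copies held 6.94% and 23.9% of the combined reads, and adding them turned its log2 ratio of replicate 1 over replicate 2 from 0.08 to -0.21, not called either way. Levels of Atp5g2, Cox7c, Atp5l, Cox7a2l and Cox5b are therefore uncertain by these amounts. No processed copy of Cox6a2, Cox6a1, Cox7a1, Cox7a2, Cox8b or Cox8a was found, so the COX paralog shares did not move when copies were added.

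**Figure D3:**
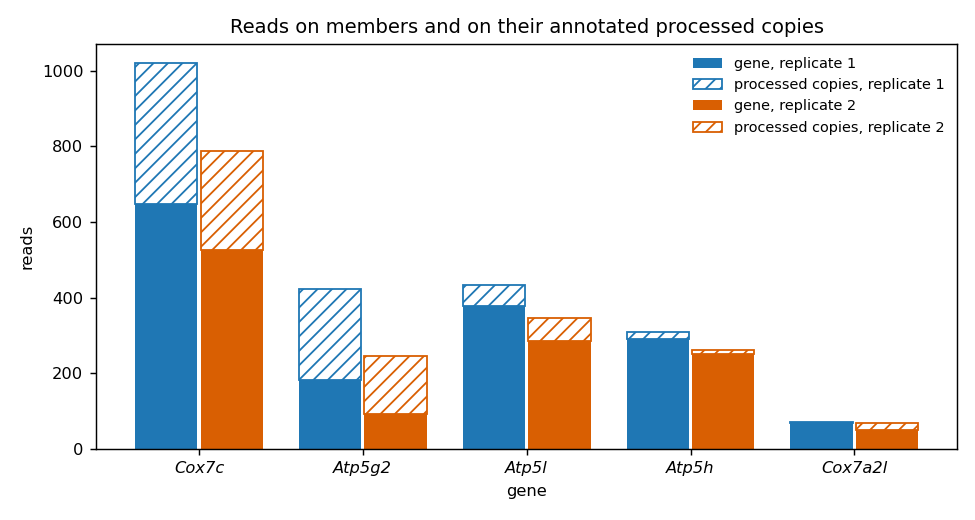
Reads on 5 members (filled) and on their annotated processed copies (hatched, stacked on top) in replicate 1 (blue) and replicate 2 (orange), for members whose copies had at least 20 reads over both libraries. The copies of Atp5g2 hold more reads than the gene (240 and 154 against 183 and 91), and those of Cox7c hold 372 and 261.

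Assembly factors are needed to build the complexes but are not part of them. All 17 of the rule had at least 10 reads over both libraries, with mean levels from 11.1 to 204 CPM. The highest were Cox14, a factor for the COX1 subunit, with 262 and 169 reads, Uqcc1, a factor for cytochrome b, with 171 and 209, and its partner Uqcc2 with 197 and 110. Cox18, an inserter of COX2, was lowest with 19 and 5. The supercomplex factor Cox7a2l, which links complexes III and IV, had 67 and 51 reads.

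A comparison of the libraries asks how far the values of 1 group differ from library to library. An exact binomial test set each gene's reads in replicate 1 against the share given by normalised library sizes, and p-values were adjusted by Benjamini and Hochberg's method over all 8394 genes. Of 61 members with at least 10 reads, 15 passed (24.6%): replicate 2 was higher for 11 of them and replicate 1 for 4. Over all genes tested, 11.7% were called either way, of which the genes with replicate 1 higher made 4.61% and those with replicate 2 higher made 7.06%. The members' median log2 ratio of replicate 1 over replicate 2 was 0.01 and that of all genes -0.00. The test knows counting error only, and members have more reads than most genes. Among genes with at least 50 reads, 25.0% of all genes were called and 15 of 55 members, so the members' share lay near the background at such depth. When the common dispersion estimated between the libraries (0.0622) was added in an edgeR exact test, 0 members were called, 0 had an unadjusted p under 0.05, and 0.286% of all genes were called. That dispersion came from these same 2 libraries taken as replicates, so the difference under test is part of its error term. The loss of calls under it therefore does not show that the libraries are alike.

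Higher in replicate 2 were Uqcrc1 (1.43-fold, 95% exact interval 1.33 to 1.54), Atp5a1 (1.25-fold, 1.18 to 1.32), Cox4i1 (1.19-fold, 1.12 to 1.26), Sdha (1.32-fold, 1.20 to 1.46) and Cox7a1 (1.61-fold, 1.34 to 1.94). Also higher there were Sdhb (1.33-fold), Atp5f1 (1.27-fold), Uqcc1 (1.52-fold), Uqcrc2 (1.28-fold), Cyc1 (1.21-fold) and the haem A factor Cox10 (1.68-fold). The adjusted p of Uqcrc1 in the exact binomial test was 4.94e-20 and that of Cox7a1 7.45e-06. Higher in replicate 1 were Cox8b (1.39-fold, 1.24 to 1.56), Atp5g2 (1.62-fold, 1.25 to 2.11), Uqcc2 (1.44-fold, 1.14 to 1.84) and the copper chaperone Cox17 (1.48-fold, 1.14 to 1.92). For Cox8b the adjusted p in the exact binomial test was 7.41e-07. All 4 tested subunits of complex II had log2 ratios below 0, with 2 called, where 25.0% of all genes with at least 50 reads were called. When scaled by length, their ratios went from -0.68 to -0.23, with 3 called. Under that scaling 8.88% of all genes were called, over all depths, and no share at like depth was taken. The 4 membrane subunits of complex V had ratios from 0.10 to 0.25, none called, and from -0.22 to -0.07 when scaled by length.

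These ratios moved with transcript length. With all tested genes split into 10 classes of equal size by the length of their leading annotated isoform, the median log2 ratio went from 0.32 in the shortest class to -0.31 in the longest. Among the members, all 4 genes called higher in replicate 1 had leading isoforms of 360 to 731 bases. Of 17 members with isoforms of 1400 bases or more, replicate 2 was the higher library in all 7 that were called. The median of these 17 was -0.32. Over all genes, class medians were 0.21, 0.17 and 0.03 from 1392 to 2627 bases and below 0 only in longer classes. The called Uqcrc1, Cyc1, Uqcrc2 and Atp5a1 thus lay in classes with medians above 0. The share of all genes of such length that were called was not taken. The 26 members under 700 bases had a median of 0.09. Cox7a1, at 393 bases, had the lowest ratio of those 26 (-0.69), and Cox4i1 (-0.25) was the other member under 700 bases that was called with replicate 2 higher. Across 60 members the correlation of the log2 ratio with log2 length was -0.36 (Pearson) and -0.45 (Spearman); genes share the libraries and are not replicates. When each class was scaled to its own median, 28 members were called, all 28 with replicate 2 higher, of which 11 had been called before. Of all genes, 8.88% were called under that scaling, a share that covers all depths. No share among genes with at least 50 reads was taken for it, and members have more reads than most genes. How the members compare with genes of like depth under that scaling is therefore not known. Cox8b, Atp5g2, Uqcc2 and Cox17 were then no longer called, and 47 of 61 members lay below the median of their class, against 50.7% of all genes. Scaling by total reads moved the median of all genes to 0.11 and gave 14 called members, 6 with replicate 1 higher and 8 with replicate 2 higher. Under total reads 12.4% of all genes were called, 586 with replicate 1 higher and 452 with replicate 2 higher. The direction in which most members differed thus depends on the scaling, while Cox7a1, Uqcrc1, Sdha, Sdhb, Cox4i1, Atp5a1, Uqcc1 and Cox10 were called with replicate 2 higher under each of these 3 scalings. The part of fibre type, whose slow markers were higher in replicate 2, was not tested.

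**Figure D4:**
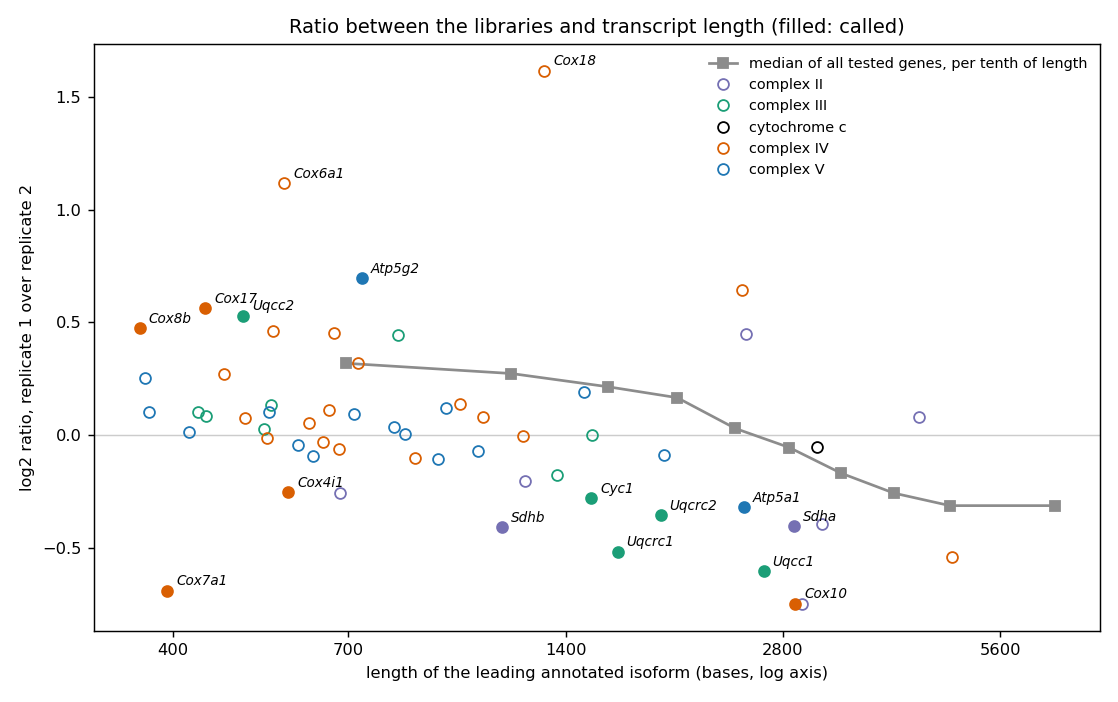
Log2 ratio of replicate 1 over replicate 2 against the length of the leading annotated isoform (log axis) for 60 members, coloured by complex and filled where called. Grey squares are the medians of all tested genes in each of 10 length classes, which go from 0.32 to -0.31, and Cox7a1 lies at -0.69 among the short genes.

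Other genes of the pathway were counted from lists and are not members. The lists hold known factors of the pathway. Over all genes tested, 7.06% were called with replicate 2 higher and 4.61% with replicate 1 higher. Of 3993 genes with at least 50 reads, 551 were called with replicate 2 higher and 446 with replicate 1 higher, 25.0% together. All called list genes but Esrrg (7 and 22 reads) had more than 50 reads. No share was taken over genes of like length. Every call on these 4 lists was lost (0 called) in the edgeR exact test with common dispersion, which was estimated from these same libraries. Of 22 further assembly factors, 20 were tested and 2 called, both higher in replicate 2: Coa5 (2.61-fold) and Lrpprc (2.69-fold), which stabilises mitochondrial mRNA. Of 8 partner proteins, 7 were tested; Ndufa4, a subunit now placed in complex IV, was higher in replicate 1 (1533 and 882 reads, 1.40-fold), and the chaperone Hspa9 was higher in replicate 2 (1.30-fold). Of 6 mitochondrially encoded subunits of complexes III to V, 5 were tested and 4 were higher in replicate 2, with a list median log2 ratio of -0.85: mt-Co1 (1188 and 1731 reads, 1.81-fold), mt-Co2 (2.00-fold), mt-Co3 (1.85-fold) and mt-Cytb (1.26-fold). Of 12 regulators, 4 were higher in replicate 2, namely the nuclear receptors Esrra (1.63-fold) and Esrrg (3.90-fold) and the muscle factors Mef2a (1.68-fold) and Mef2c (1.48-fold). The other 8 were not called, and the list median was -0.48.

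Long reads also show how much of each transcript was read. Reads were assigned to annotated chains of introns (Known), to chains with annotated splice sites in other combinations (NIC) or with other splice sites (NNC), to parts of a chain (ISM) or to no chain (Genomic). Over members with at least 20 reads of the first 3 classes in each library, those classes held 88.2% of reads in replicate 1 (Wilson 95% interval 87.9 to 88.6) and 88.8% in replicate 2 (88.4 to 89.2). For Atp5f1 and Cox4i1 the class and the coding content went apart. Atp5f1 had no read of the Known class and 97.0% and 98.5% in ISM, since its only full coding model has a further upstream exon, yet 92.8% and 94.2% of its reads held every coding intron. Cox4i1 had 98.2% and 98.0% of its reads in the first 3 classes, but its leading model, Cox4i1-204, is annotated as non-coding. That model holds the last 3 exons and took 1567 and 1612 reads, against 767 and 619 on the 5-exon coding model Cox4i1-201.

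Every coding intron of an annotated coding transcript was therefore asked for, whatever the class. Over the 60 members with a coding intron and reads, 84.1% of reads in replicate 1 and 83.5% in replicate 2 held all of them, and 88.4% and 88.7% without Cox4i1. For Cox4i1 the share was 33.4% (Wilson 95% interval 31.5 to 35.3) and 28.5% (26.7 to 30.4). The median gene stood at 93.5%. Atp5b was the other abundant gene with many partial reads: 60.3% and 59.5% of its reads held all coding introns, and a 2-exon model took 1004 of its reads in replicate 1 and 882 in replicate 2. The start of that model, the same in both libraries, lies within a coding exon at chr10:128089041 on the plus strand, and the coding bases around it (chr10:128089021-128089080) are shown with capitals from the start on.
Atp5b: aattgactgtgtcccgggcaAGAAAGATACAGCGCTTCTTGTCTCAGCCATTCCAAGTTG
Single-exon reads of the last exon were frequent for genes such as Atp5g2 (88 and 40 reads), Cox6a2 (246 and 292) and Cox7a1 (42 and 53). Sdhaf4 had 17 of 54 and 23 of 52 reads of this kind, and Sdhd 23 of 238 and 31 of 221. In replicate 1 alone such reads were frequent for Uqcrq (279 and 0), for which 180 reads of replicate 2 had another structure. For Uqcrq, 279 reads were ISM and 0 Genomic in replicate 1, against 0 ISM and 177 Genomic in replicate 2. Whether the reads themselves or only the models they were assigned to differed was not tested. Known models carry annotated ends, so where their reads began is not given by these files.

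**Figure D5:**
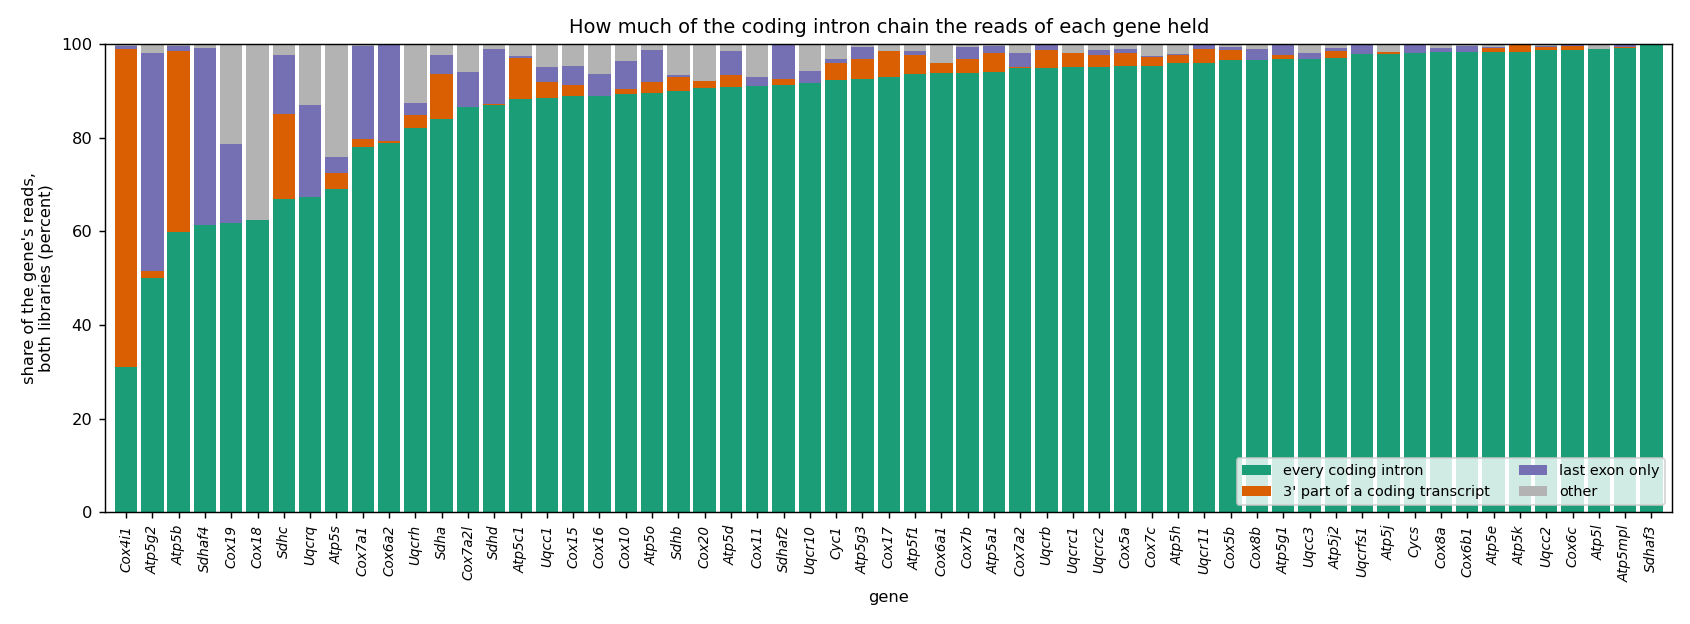
Share of each gene's reads over both libraries, in percent, that held every coding intron (green), the 3' part of a coding transcript with at least 1 intron (orange), the last exon only (purple) or another structure (grey), for members with a coding intron and at least 10 reads. Cox4i1 stands at the left with 31.0% green, while most genes are over 80% green.

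Most members assessed used mainly 1 form. Among 54 members with at least 20 reads of the first 3 classes in each library, the leading chain held a median of 97.6% of them, against 89.8% over 3521 genes. Members are shorter, with a median leading isoform of 809 bases against 2627 over all genes tested, and genes of like length were not compared. Fisher's exact test of the leading share between libraries called 0 members and 0.454% of all genes after Benjamini-Hochberg adjustment over 3521 genes; 3 members had an unadjusted p under 0.05. Atp5j, the coupling factor 6 of the stalk, was the member whose leading chain lay under 50% (33.9% and 29.1% of 165 and 141 reads) and did not lead alone in replicate 2: Atp5j-201 had 56 and 41 reads and a chain that is not annotated had 48 and 41. All the same, 98.3% and 97.3% of its 764 and 601 reads held its coding introns.

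The γ subunit gene Atp5c1 has a short exon near the end of its coding sequence, whose skipping is known as the muscle form. The exon (37 bases, chr2:10056770-10056806) was present in 5 of 667 reads across it in replicate 1 and 6 of 567 in replicate 2, or 0.750% (Wilson 95% interval 0.321 to 1.74) and 1.06% (0.486 to 2.29). With the exon the coding sequence ends inside it, and without it in the last exon. The ends are shown in lower case for the last 45 shared coding bases and in capitals for what follows, stop codon included (minus strand, introns left out).
Atp5c1-201, exon skipped, chr2:10056158-10059040: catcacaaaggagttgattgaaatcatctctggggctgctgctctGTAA
Atp5c1-203, exon included, chr2:10056800-10059040: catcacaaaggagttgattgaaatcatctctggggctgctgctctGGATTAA
Skipping, the muscle form, made up 99.3% and 98.9% of these reads, and the intervals of the libraries overlap.

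An annotated optional exon of Cox7a2l was chosen after its values were seen. Its 69 bases (chr17:83503931-83503999, minus strand) were present in 10 of 60 reads across it in replicate 1 and 7 of 46 in replicate 2, or 16.7% (Wilson 95% interval 9.31 to 28.0) and 15.2% (7.57 to 28.2). It is shown in capitals between the 15 coding bases on each side.
Cox7a2l-202: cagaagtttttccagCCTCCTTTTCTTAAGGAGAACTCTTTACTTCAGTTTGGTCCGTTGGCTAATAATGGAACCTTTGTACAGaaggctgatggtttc
Optional exons of Uqcr10 (86 bases, 4.99% and 4.06%) and Atp5j (55 bases, 3.93% and 3.62%) were present in smaller shares of the reads across them.

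Many nuclear respiratory genes are known targets of the factors NRF1, GABP (an ETS factor) and ERR. RefSeq promoter windows on GRCm38.p6, from 250 bases before to 50 after a start, were matched for 49 of 65 member symbols, and short motifs were searched on both strands. Of the 49, Cox6b2 and Cox7b2 had no reads, and shares are over the other 47, which were tested. The ETS letters CCGGAAG stood in windows of 20 of the 47 (42.6%), against 23.0% of 6540 tested genes with a window. NRF1 (GCGCATGC) stood in 8 members (17.0% against 6.97%), namely Atp5g2, Atp5k, Atp5l, Cox6a1, Cycs, Sdhb, Uqcr11 and Uqcrc1. ERR (AAGGTCA) stood in 6 (12.8% against 3.79%), and SP1 (GGGCGGG) in 16 (34.0% against 54.0%). Among the 47 members searched, the muscle motifs were not more frequent. The E-box CAGCTG stood in 3 members (6.38% against 17.7%), Atp5b, Cox8b and Uqcc3, and the MEF2 core TAAAAATA in 0 (against 1.90%). The muscle form Cox6a2 and the abundant Cox4i1 and Atp5a1 had no matched window, so their promoters were not searched. Overlaps between motifs were not removed, and a match is a description of letters, not of binding.
The bases before the start are shown for Atp5l, whose window holds the NRF1, ETS and ERR letters (chr9:44920743-44920992, minus strand), and for Cox8b, a muscle form whose window holds an E-box (chr7:140900447-140900696, minus strand), with motif matches in capitals.
Atp5l: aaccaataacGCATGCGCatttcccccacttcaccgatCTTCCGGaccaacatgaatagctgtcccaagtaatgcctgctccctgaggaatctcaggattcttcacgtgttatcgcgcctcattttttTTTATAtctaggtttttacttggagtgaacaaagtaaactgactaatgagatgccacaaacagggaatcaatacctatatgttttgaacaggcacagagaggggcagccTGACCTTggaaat
Cox8b: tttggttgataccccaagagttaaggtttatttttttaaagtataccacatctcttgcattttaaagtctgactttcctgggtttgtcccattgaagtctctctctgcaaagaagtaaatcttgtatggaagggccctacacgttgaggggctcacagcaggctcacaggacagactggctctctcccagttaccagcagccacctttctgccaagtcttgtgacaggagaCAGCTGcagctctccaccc
In the Atp5l window TTTATA, the reverse of the TATA letters TATAAA, is also in capitals.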

How the data were processed

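Long-read RNA sequencing of 2 gastrocnemius libraries was used as deposited. The authors deposited raw counts of reads per transcript model, 1 table per library, with the number of exons and length of each model per the file headers; models carry TALON fields, the notes deposited with the tables name GENCODE M21, and the assembly is mm10 per the labels. The aligner and its version were not given in the sources used here. Spike-in and unannotated models were left out, and counts of all models of a gene were summed. The members and lists were chosen with earlier results of these data known. Genes named are the highest 3 and lowest 2 subunits of each complex, all paralogs, Cycs and Cyc1, called genes with the smallest p, genes without reads, the highest 3 assembly factors, genes with divided isoforms and called list genes; others were chosen after their values were seen.

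Normalised library sizes came from TMM in edgeR 4.0.16 (R 4.3.3; factors 1.04 and 0.961). The 8394 genes whose reads summed to 10 or more entered an exact binomial test, 2-sided, and Benjamini and Hochberg's adjustment was taken over all of them with a threshold of 0.05. With 1 library on each side, edgeR's quasi-likelihood fit has no residual degrees of freedom. Intervals are 95% and cover counting error only. Models were matched between libraries by their introns, and leading shares compared by Fisher's exact test in genes with at least 20 Known, NIC and NNC reads in each library. Alternatives were DESeq2 1.42.0 size factors, total counts, scaling by length, other filters and classes, an edgeR exact test with common dispersion, reads per kilobase, and added processed copies. Scripts ran in Python 3.11.15 (scipy 1.17.1, pandas 2.3.3, numpy 2.4.6), and the tests were tested on simulated data. The simulated counts held counting error only, without the dispersion or the length trend seen between these libraries, so they do not vouch for the calls made here. Positions and transcripts are from GENCODE M21 (GRCm38), promoters from RefSeq.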

Additional observations from a re-analysis of the deposited data

How the results depend on the processing

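The count of called members was 15 and stayed within 13 to 15 with DESeq2 size factors, total counts, other filters, Known, NIC and NNC models and added copies. Total counts lost Atp5f1, Cyc1 and Uqcrc2 and gained Atp5mpl and Cox14, and Known, NIC and NNC models lost Atp5f1 and Atp5g2. These settings called 11.6% to 12.4% of all genes, except 5.88% with no filter and 25.0% with at least 50 reads. The count of members rose to 28 when each length class was scaled to its own median, where 8.88% of all genes were called. With edgeR's common dispersion, estimated from these same libraries, it fell to 0, all 15 calls were lost, and 0.286% of all genes were called. With Known, NIC and NNC models only, the log2 ratio of Atp5f1 turned from -0.34 to 1.51, with few of its reads in those classes (2.35% and 0.659%). The summed level was 27760 CPM over Known, NIC and NNC models, 38213 over Known models, 26252 over all reads of the table and 33511 per kilobase, against 27493 as reported. In this section per kilobase refers to the leading annotated isoform where reads gave one. For Cox4i1 that is a 578-base non-coding model and not the 745-base coding one used above. Leaving out either library gave 27394 and 27591. The pooled muscle-type share of 80.3% became 77.9% over Known, NIC and NNC models, 78.1% over Known models and 83.7% per kilobase, and ranged from 79.4% to 81.2% with 1 library left out. Cox7a1 moved from 34.8% to 30.2% over Known, NIC and NNC models, 30.5% over Known models and 47.0% per kilobase. Cox8b moved from 91.8% to 91.6% over Known models and 94.4% per kilobase. The share of complete chains, 88.5%, became 87.2% over Known only, 86.7% over all members with reads and, in a definition chosen after seeing the data, 83.8% for every coding intron. Leaving out a library left it between 88.2% and 88.8%, Cox6a2 between 97.6% and 98.9%, and exon inclusion in Atp5c1 between 0.750% and 1.06%. No paired analysis was possible because there is 1 group. With 2 libraries the SD is itself imprecise, and a difference seen between them has no replicate check.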
